A study of Mus musculus with 4 samples.

Results

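The Cxcl13 Inmt fibroblasts of mouse skin are cells of a fibroblast profile that hold transcripts of Cxcl13, a chemokine that attracts B cells, or of Inmt, an enzyme that methylates indole amines such as tryptamine. Cells were chosen by their counts of unique molecular identifiers (UMIs), each of which marks 1 captured transcript. A member had at least 300 genes, at most 15% mitochondrial UMIs, 0 UMIs of the leukocyte gene Ptprc and at least 1 UMI of Pdgfra, a growth factor receptor of fibroblasts. It also had at least 20 UMIs of the collagen genes Col1a1, Col1a2 and Col3a1 together, under 10 of Angptl7, under 5 of Cxcl5 and Saa3 together, and at least 3 of Cxcl13 and Inmt together. Of 28847 barcodes in 4 libraries, 3351 passed every other part of the rule, and 530 of these had the 3 UMIs of Cxcl13 and Inmt. The remaining 2821 are called other fibroblasts below. Because measured values of these genes chose the members, the levels of the genes in the rule are given as a description, with no test.

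Fibroblasts make and remodel the collagen matrix of the dermis. Those of the upper, papillary dermis and of the dermal papilla of the hair follicle respond to Wnt signals, whereas reticular and adventitial fibroblasts lie deeper or around vessels and nerves. Cxcl13 is best known from stromal cells of lymph node follicles, where it guides cells that carry its receptor Cxcr5. In skin, fibroblasts are a source of chemokines, complement proteins and enzymes that handle lipids, amines and hormones.

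The study measured RNA of single cells from the neck and ear skin of female C57BL/6J mice aged 6 to 8 weeks, with cells of 3 mice pooled in each library. In the MC903 library, MC903 (calcipotriol, a vitamin D analog that gives mice a dermatitis) had been applied daily as 1 nmol in 100 µL, and the library is labelled day 9. In the oxazolone day 10 and day 16 libraries, mice had been sensitised with 3% oxazolone, a contact hapten, and later challenged every other day with 100 µL at 1.0%. The mice of the reference library were untreated, and a vehicle library was not analysed here; MC903 or oxazolone and its solvent cannot be told apart.

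Each group had 1 library, and differences between groups therefore carry no test. Intervals are 95% intervals that cover counting error only. Library totals ranged from 73054242 to 119717836 UMIs. Members had a median of 29172 UMIs in the MC903 library, 24247.5 at oxazolone day 10, 34509 at oxazolone day 16 and 13278 in untreated skin. Other fibroblasts had medians of 26130, 18928.5, 27180 and 13391 UMIs in the same order. Of barcodes that occur in more than 1 library there were 67, of which 2 were members, both in the MC903 library. The file headers name a later version of the counting software for the MC903 and oxazolone day 16 libraries than for the other libraries, so software and treatment cannot be told apart in these comparisons with untreated skin.

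Members were most frequent in MC903 skin. They numbered 382 of 810 fibroblasts passing the rest of the rule in the MC903 library (47.2%, interval 43.7 to 50.7). The share was 16 of 476 at oxazolone day 10 (3.36%, 1.93 to 5.40), 37 of 214 at oxazolone day 16 (17.3%, 12.5 to 23.04) and 95 of 1851 in untreated skin (5.13%, 4.17 to 6.24). Of all members, 72.1% came from the MC903 library, so a statement on members as a whole is mostly one on MC903 skin. Since untreated cells held fewer UMIs, each cell was also thinned at random to 5000 UMIs, leaving out 7, 16, 12 and 70 shallower cells in the order of the libraries above. The shares were then 30.01% with MC903, 1.304% at oxazolone day 10, 4.95% at oxazolone day 16 and 2.02% in untreated skin, so the MC903 library remained far above the others.

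**Figure D1:**
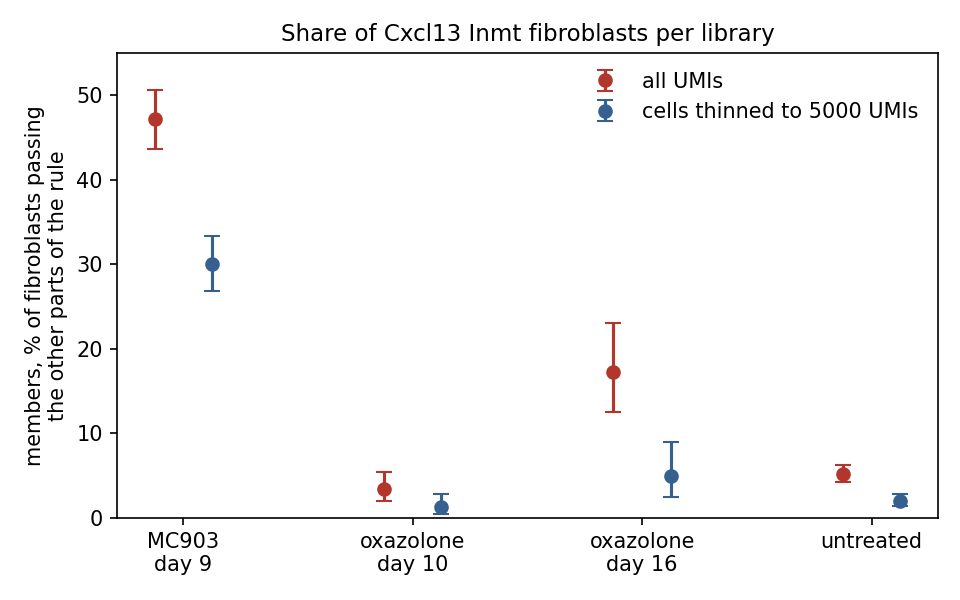
Share of Cxcl13 Inmt fibroblasts among fibroblasts that passed every other part of the rule, per library, with all UMIs (red) and after thinning each cell to 5000 UMIs (blue); bars are exact 95% binomial intervals. The MC903 library stands at 47.2% with all UMIs and 30.01% after thinning, above each of the other libraries.

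Around the threshold, 27, 4, 5 and 25 members held exactly 3 UMIs of Cxcl13 and Inmt in the MC903, oxazolone day 10, oxazolone day 16 and untreated libraries, while 32, 6, 3 and 38 cells held 2 and were left out. The limit on Cxcl5 and Saa3, genes of an acute inflammatory fibroblast profile, removed cells that would otherwise have counted. Of 58, 167 and 129 fibroblasts above that limit in the MC903, oxazolone day 10 and oxazolone day 16 libraries, 21, 9 and 31 also held the 3 UMIs (36.2%, 5.39% and 24.0%). Untreated skin had 0 fibroblasts above it. The collagen limit mattered in MC903 skin, where 113 of 511 Pdgfra cells with fewer collagen UMIs (22.1%) held the 3 UMIs.

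Cxcl13 lies on chromosome 5 (95956951 to 95961068, plus strand, GRCm38) and Inmt on chromosome 6 (55170626 to 55175043, minus strand). The stretches just upstream of both genes are shown because these genes define the cells. They are from the RefSeq promoter table of GRCm38.p6, at chr5:95956689-95956938 for Cxcl13 and chr6:55175044-55175240 for Inmt, each on the strand of its gene. Capitals mark TATAAA, the core of a TATA box, and AGGTCA, a repeat unit in the sites of nuclear receptors such as the vitamin D receptor, which in Cxcl13 stands on the opposite strand and so reads TGACCT.
Cxcl13: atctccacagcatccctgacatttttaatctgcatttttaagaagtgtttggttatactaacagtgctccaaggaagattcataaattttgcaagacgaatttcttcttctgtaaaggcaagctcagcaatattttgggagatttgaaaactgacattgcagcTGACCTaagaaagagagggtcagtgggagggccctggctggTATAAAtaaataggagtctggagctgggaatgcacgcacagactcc
Inmt: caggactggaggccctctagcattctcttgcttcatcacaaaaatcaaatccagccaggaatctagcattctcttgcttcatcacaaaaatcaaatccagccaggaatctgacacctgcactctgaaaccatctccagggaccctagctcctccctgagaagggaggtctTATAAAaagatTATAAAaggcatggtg
Both windows hold TATAAA, Inmt with 2 copies, and the AGGTCA letters occur only in that of Cxcl13. Over 32851 promoter windows of 300 bases, searched on both strands, 13.6% held TATAAA and 16.3% held AGGTCA. These matches are letters in a window and say nothing on binding.

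Members held Cxcl13 or Inmt alone, or both, in proportions that differed between libraries. Since the sum of both genes chose the members, the split is a description. With MC903, 72 members held UMIs of Cxcl13 alone, 219 of Inmt alone and 91 of both (23.8% of members, 19.6 to 28.4). At oxazolone day 10 the counts were 9, 4 and 3, at oxazolone day 16 they were 20, 13 and 4, and in untreated skin 16, 75 and 4. Members of untreated skin were thus mainly Inmt cells, and those of oxazolone skin mainly Cxcl13 cells. Among all 810 fibroblasts of the MC903 library that passed the rest of the rule, Cxcl13 was found in 25.1% of cells with an Inmt UMI and in 22.7% of cells without one, so in these cells Cxcl13 was about as frequent with Inmt as without it.

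The Cxcl13 counts were concentrated in few cells. The highest MC903 member held 897 Cxcl13 UMIs, 76 members held at least 100, and the 38 highest members held 62.9% of the members' Cxcl13 UMIs. The highest untreated member held 51. The level over all members, as CPM, the customary scaling of a gene's UMIs by all UMIs of the summed cells, was 1969 with MC903, 377 at oxazolone day 10, 676 at oxazolone day 16 and 206 in untreated skin. For Inmt it was 527, 101, 80.8 and 319 CPM in the same order, so the Inmt level of oxazolone members was below that of untreated members.

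**Figure D2:**
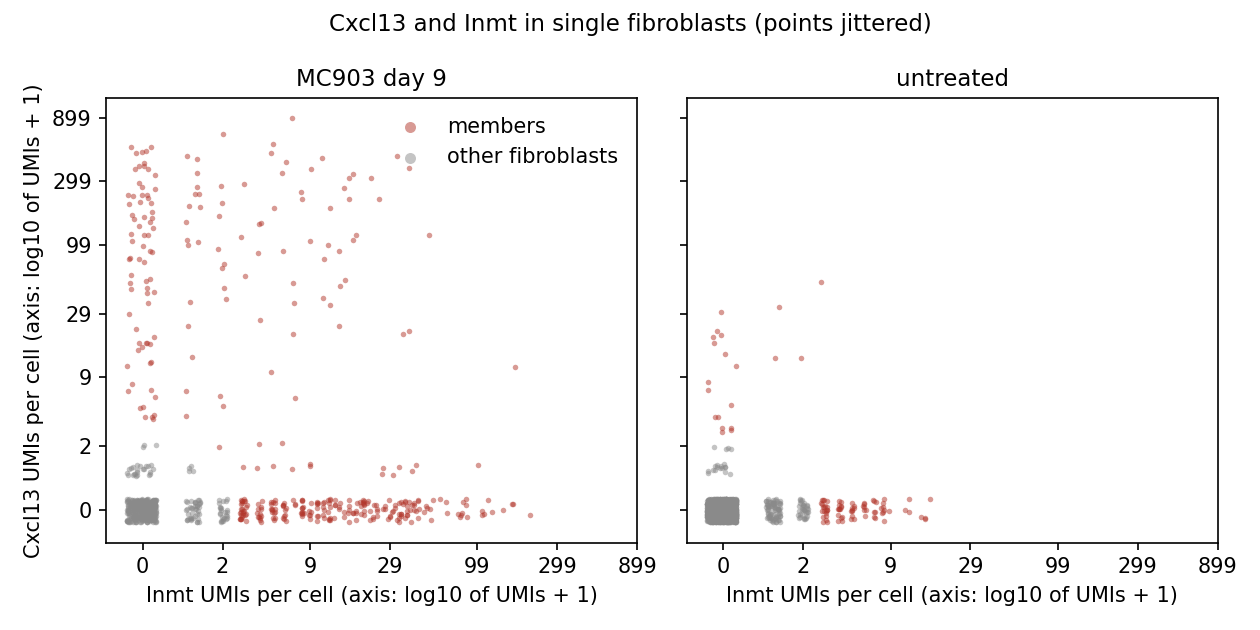
UMIs of Inmt (x axis) and Cxcl13 (y axis) per fibroblast in MC903 and untreated skin, both on a log10 scale of UMIs plus 1 with jitter; red points are members and grey points other fibroblasts. With MC903 the members spread along both axes, up to 897 Cxcl13 UMIs and 205 Inmt UMIs, and 91 of 382 held both genes; untreated members reached 51 and 16.

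Low counts of these genes also occurred in cells of other types. In MC903 skin, 23.8% of the 810 fibroblasts held a Cxcl13 UMI, against 10 of 91 keratinocytes (10.99%) and 4.79% of 793 leukocytes, at median depths of 27974.5, 44123 and 11005 UMIs. After thinning to 5000 UMIs the shares were 18.1%, 1.10% and 2.67%. The levels differed more, with 979 CPM in fibroblasts, 2.46 CPM in keratinocytes and 3.19 CPM in leukocytes. In untreated skin, Cxcl13 was seen in 2.11% of fibroblasts, 0.262% of keratinocytes and 0.119% of leukocytes. Inmt was seen in 46.8% of MC903 fibroblasts, 1.10% of keratinocytes and 1.39% of leukocytes, and in untreated skin in 10.4%, 0.196% and 0.0595% of these cells. It was not low in the cells removed by the Angptl7 limit, with 152 CPM in 89 MC903 cells and 90.2 CPM in 40 untreated cells. Fibroblasts passing the rest of the rule had 266 and 21.1 CPM of Inmt. Cxcl13 had 1.82 and 0 CPM in the cells removed by that limit.

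Most Cxcl13 of the MC903 library was in the members, but that of the oxazolone libraries was not. Members held 78.3% of 30533 Cxcl13 UMIs with MC903, 28.9% of 530 at oxazolone day 10, 16.4% of 5257 at oxazolone day 16 and 70.3% of 401 in untreated skin. At oxazolone day 16, Cxcl5 Saa3 fibroblasts held 44.9% of the Cxcl13 UMIs and cells with a Ptprc UMI held 38.3%. Of the 2011 Cxcl13 UMIs in cells with a Ptprc UMI, 171 were in leukocytes with at least 2 Ptprc UMIs and without Pdgfra. The remainder lay in cells with fewer Ptprc UMIs or with a Pdgfra UMI, which the rule leaves out. For Inmt, members held 71.5% of 8952 UMIs with MC903, 48.2% of 85 at oxazolone day 10, 57.2% of 180 at oxazolone day 16 and 61.0% of 713 in untreated skin.

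The remaining marker genes fitted the label in part. Apod, a carrier of small lipids, had 6546 CPM in MC903 members, against 4438 in other fibroblasts of that library. It had 2544 against 1474 CPM at oxazolone day 10, 1816 against 1294 at oxazolone day 16, and 1103 against 1083 in untreated skin. Dpep1, a dipeptidase of the cell surface, had 602 against 432 CPM with MC903, 367 against 92.7 at oxazolone day 10, 322 against 105 at oxazolone day 16 and 267 against 187 in untreated skin. Apod was thus higher in members of the treated libraries and nearly equal in untreated skin. MC903 members with Cxcl13 alone had 3612 CPM of Apod, below the other fibroblasts of that library. Dpep1 was higher in members of each library and was also seen in more cells, with a UMI in 98.2% of MC903 members and 75.5% of the other fibroblasts there. Igfbp3, which binds insulin-like growth factors, had 2901 against 1387 CPM with MC903 and 280 against 197 in untreated skin, but 88.8 against 142 CPM at oxazolone day 10 and 133 against 194 at oxazolone day 16. In the edgeR test described next, none of these marker genes passed, with adjusted p = 0.176 for Apod, 0.0982 for Dpep1 and 0.444 for Igfbp3. The summed level of Igfbp3 was thus above that of the other fibroblasts in members of MC903 and untreated skin, and below it in those of oxazolone skin. The share of cells with an Igfbp3 UMI did not follow that order at oxazolone day 16, where it was 48.6% in members and 22.0% in the others, of whose UMIs 27.8% were in 1 cell. At oxazolone day 10 it was 37.5% and 38.5%.

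UMIs were summed per library over members and over other fibroblasts, and the sums were compared with edgeR's quasi-likelihood test, with the library as a term and Benjamini-Hochberg adjustment over all genes. The MC903, oxazolone day 16 and untreated libraries had at least 20 members and entered, 3 pairs of sums in all. The 16 members of oxazolone day 10 did not. Of 14515 genes, 185 were higher in members (1.27%) and 402 lower (2.77%). The calls rest largely on the MC903 library: without it, 4 genes were higher and 15 lower, 17 of these among the 587 called with it, while all 529 of the calls that could still be tested kept their direction. Fmo2, Chrm3, Crabp1, Clu and Acta2 were among those still called.

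Some genes that handle drugs and amines and some complement genes rose in members, while most of either list did not pass the test. Fmo2, a flavin enzyme that oxidises drugs and amines, had 429, 113 and 97.4 CPM in members of the MC903, oxazolone day 16 and untreated libraries, and 164, 16.9 and 11.98 CPM in the other fibroblasts. Its log2 fold change was 2.43 ± 0.31 (SE, adjusted p = 0.0108, higher in 3 of 3 libraries). Of 31 tested genes for drug and amine metabolism, 5 rose and 0 fell, with a median log2 fold change of 0.49 against 0.01 over all genes. They were Fmo2, Gpx3, a glutathione peroxidase, the glutathione transferases Gstt1 and Gstm1, and Adh1, an alcohol and retinol dehydrogenase. Of 14 complement genes, 5 rose and 1 fell (median 0.81). C3, the central complement protein, had 2108, 1783 and 874 CPM in members, against 1108, 561 and 432 CPM in the others (log2 fold change 1.32 ± 0.19, adjusted p = 0.0144). C2, C7, C1s1 and C4b rose as well, and Clu, which inhibits complement lysis, fell by 3.25 on the log2 scale. In MC903 members with Cxcl13 alone, neither Fmo2 nor C3 stood above the other fibroblasts, as given below.

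The 12 highest fold changes also included signalling genes. Chrdl1, a secreted inhibitor of BMP signals, had 102, 188 and 93.7 CPM in members, against 23.9, 59.2 and 17.4 CPM in the others (log2 fold change 2.18 ± 0.15, adjusted p = 0.00242). Ebf3, a transcription factor of mesenchymal cells, had 17.8, 91.8 and 24.9 CPM, against 4.79, 22.6 and 3.70 CPM (2.31 ± 0.20, adjusted p = 0.00395). For both genes, members stood above the others in each library, although the level of Ebf3 itself was highest at oxazolone day 16. Sfrp4, a secreted modulator of Wnt signals, rose by 2.22, the muscarinic receptor gene Chrm3 by 2.66 (48.2% of its UMIs at oxazolone day 16 were in 1 member), the sphingomyelinase gene Smpd3 by 2.46 and Plac8 by 1.96. The highest of all was Sntg1, a syntrophin gene, at 2.93. Tnfsf13b, the B cell survival factor BAFF, had 9.05, 27.5 and 5.86 CPM in members, against 2.76, 2.73 and 1.87 CPM in the others (2.32 ± 0.43, adjusted p = 0.0336). It was the only riser among 12 tested genes of lymphoid stroma, of which Grem1, a BMP inhibitor, fell.

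**Figure D3:**
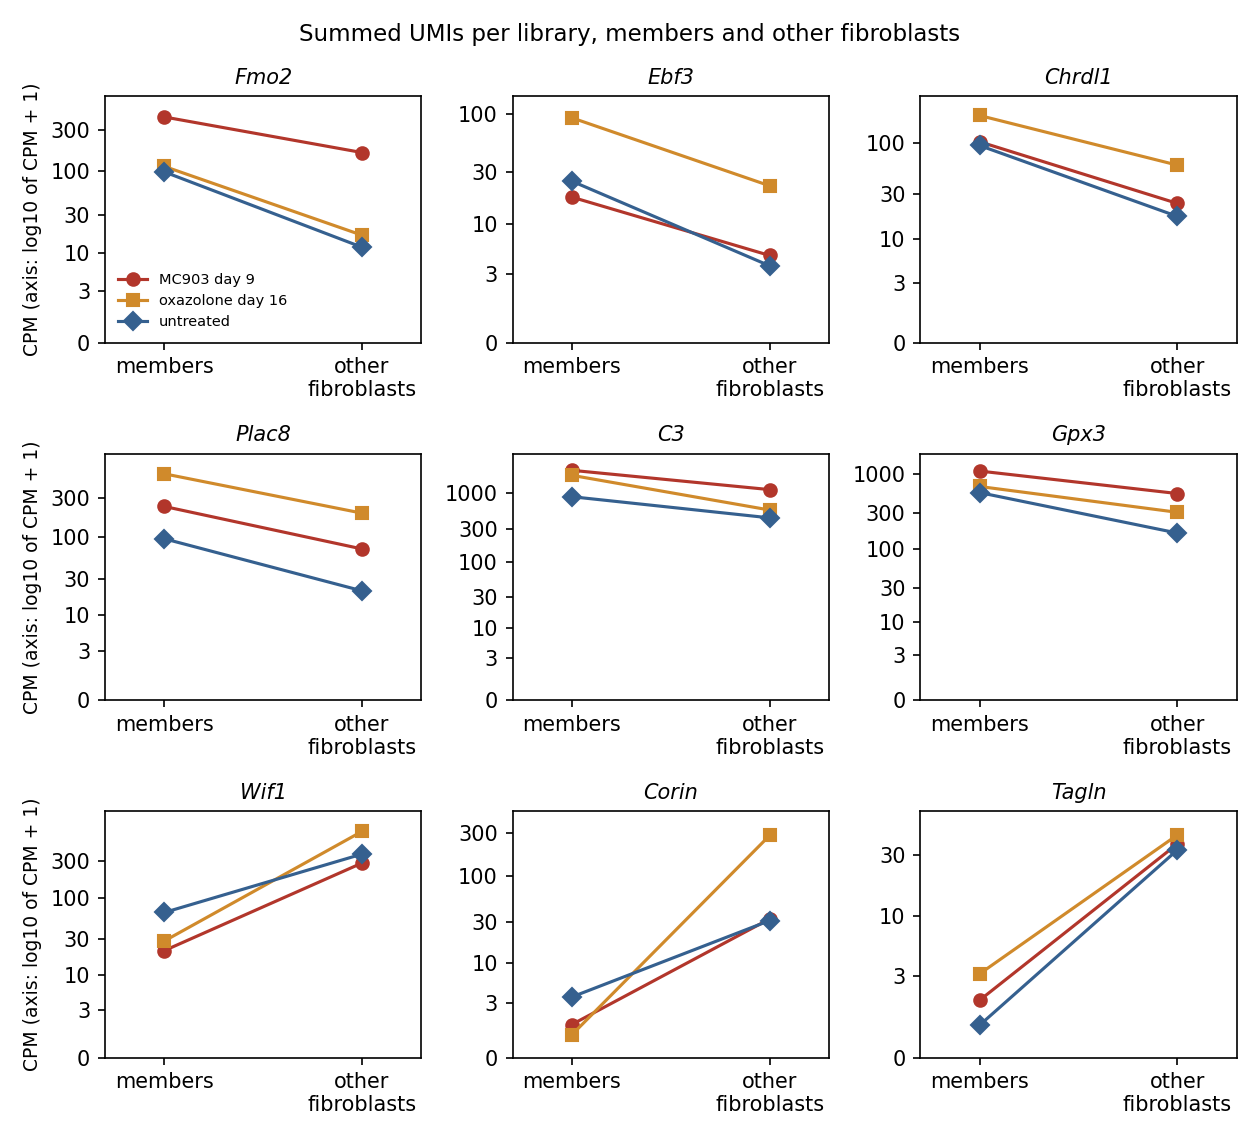
Summed expression in CPM, on a log10 scale of CPM plus 1, in members (left) and other fibroblasts (right) of the MC903 (circles), oxazolone day 16 (squares) and untreated (diamonds) libraries. Fmo2, Ebf3, Chrdl1, Plac8, C3 and Gpx3 were higher in members of all 3 libraries, and Wif1, Corin and Tagln lower in all 3.

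Of genes of the deeper and adventitial dermis, a minority rose in members. Of 11 genes of Col15a1 fibroblasts, a profile shared by many organs, 4 rose and 0 fell: Ebf2, Hsd11b1, which makes active glucocorticoid, Lpl, which releases fatty acids from lipoproteins, and the eosinophil chemokine gene Ccl11. Of 13 genes of Pi16 fibroblasts, 2 rose and 0 fell. Of 13 reticular genes, 3 rose (Col14a1, Gpx3 and Mfap5) and 1 fell, the guidance gene Slit2. The 4 lists of cytokine receptors, NF-kB targets, cell cycle and antigen presentation, with 24, 15, 15 and 15 tested genes, had 0 calls in either direction. Over all genes 1.27% were called higher and 2.77% lower, so 0 calls in lists of this size is close to that share. Their median log2 fold changes were 0.28, 0.04, -1.49 and 0.22 in the same order.

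Many papillary, hair follicle and contractile genes fell in members. Of 16 papillary genes, 0 rose and 7 fell (median log2 fold change -1.75), and of 14 genes of the dermal papilla and sheath, 0 rose and 9 fell (median -2.90). Corin, a protease of the dermal papilla, had 1.32, 0.785 and 3.66 CPM in members of the MC903, oxazolone day 16 and untreated libraries, against 32.8, 280 and 31.4 CPM in the others. Crabp1, which binds retinoic acid, had 0.823, 2.35 and 0.732 CPM in members, against 23.8, 112 and 20.1 CPM. Lef1, a transcription factor of Wnt signalling, fell by 3.64, and the Wnt inhibitor gene Wif1 fell by 3.44. Of 30 Wnt pathway genes, 1 rose (Sfrp4) and 9 fell, among them the Wnt agonists Rspo1, Rspo2, Rspo3 and Rspo4. These lists overlap. The falling Wnt genes Wif1, Lef1, Apcdd1 and Rspo1 are also in the papillary list, and Rspo2 and Rspo3 in that of the dermal papilla. Crabp1 is in the papillary and dermal papilla lists. No part of the rule removed cells of the dermal papilla or sheath from the other fibroblasts. The part of such cells in these falls was not tested.

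Of 11 myofibroblast genes, 0 rose and 5 fell. Acta2, smooth muscle actin, had 2.72, 4.71 and 6.59 CPM in members, against 87.1, 79.8 and 58.8 CPM in the others, and fell by 4.28 (adjusted p = 0.00273). Tagln fell by 4.30. The 8 lowest fold changes were those of Stac, Dcc, Lingo2, Chodl, Tnn, Scube3, Col9a2 and F5, which had at most 2.35 CPM in members of any of the 3 libraries. Collagen and matrix genes split, with 2 rising and 5 falling of 37. Fmod, a collagen-binding proteoglycan, fell by 4.203, and Col7a1 of the anchoring fibrils fell by 3.22.

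Markers of further cell types moved with these falls. The summed level of 6 chondrocyte markers was 11.6, 4.93, 10.2 and 49.8 CPM in members of the MC903, oxazolone day 10, oxazolone day 16 and untreated libraries, against 259, 1549, 721 and 348 CPM in other fibroblasts. For 6 mural cell markers, which include Acta2 and Tagln, the sums were 29.2, 37.0, 13.3 and 24.9 CPM, against 150, 395, 201 and 171 CPM. For 8 keratinocyte markers they were 35.0, 64.1, 31.4 and 255 CPM, against 73.0, 166, 43.4 and 461 CPM. The part of these cells in the falls was not tested beyond leaving out cells that held other lineages' UMIs, after which 141 genes were higher and 352 lower. The genes used for that step included Rgs5 and Col2a1, but no dermal papilla gene and neither Acta2 nor Tagln. For 6 endothelial markers the sums were 60.7, 14.8, 7.06 and 72.5 CPM, against 19.7, 13.5, 6.23 and 7.63 CPM, and so stood well above the others in MC903 and untreated members and close to them in oxazolone members. Of 992 UMIs of the lymphatic genes Lyve1, Mmrn1 and Reln in MC903 members, 1 cell held 696, and of 79 in untreated members 1 cell held 76.

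In members, expression with MC903 was set against that of untreated skin as a CPM ratio, which has no replicate check. Members with both genes numbered 91 of 382 with MC903 and 4 of 95 in untreated skin. The part of this mix in the ratios was not tested beyond ratios of members chosen by Inmt alone. Of 11886 genes that reached 30 UMIs over both libraries, 1075 were at least 2-fold higher with MC903 (9.04%) and 1132 at least 2-fold lower (9.52%). In other fibroblasts these shares were 7.48% and 10.3% of 14775 genes. Cyp24a1, which breaks down vitamin D and is its standard target gene, had 924 UMIs in MC903 members (76.0 CPM) and 0 in untreated members. It was at least 34.6-fold higher, with the untreated count set to 3 UMIs. It was seen in 16.5% of MC903 members and 10.0% of the other fibroblasts there, at 76.0 and 77.2 CPM, and in 0 of 16, 0 of 37 and 0 of 95 members of oxazolone day 10, oxazolone day 16 and untreated skin, which allow shares of cells with a UMI of up to 20.6%, 9.49% and 3.81% (exact 95% limits for counting error, which do not bound the share of cells expressing the gene). The treatment's target gene thus stood at about the same level in both kinds of fibroblast.

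The highest ratio was that of Kcne4, a potassium channel subunit, with 1148 UMIs in MC903 members and 1 in untreated members (log2 ratio 7.01, interval 4.53 to 12.32). Kcne4 was higher in the other fibroblasts too, with 73.2 against 2.25 CPM (5.02). Serpina3n, a protease inhibitor of the acute phase, had 1268 CPM in MC903 members, against 74.0 CPM in untreated members (4.10, 3.82 to 4.40). In the other fibroblasts it had 943 against 273 CPM. The marker genes were higher too, Apod with a log2 ratio of 2.57, Igfbp3 with 3.37 and Dpep1 with 1.17, and in other fibroblasts their log2 ratios were 2.03, 2.82 and 1.21.

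Among complement genes more were higher than lower with MC903, in members and in other fibroblasts, and lipid genes went both ways. Of 13 complement genes, 6 were at least 2-fold higher and 1 lower, with C7 of the membrane attack complex at 4.22 and the lectin pathway protease Masp1 at 3.56. The counts in other fibroblasts were also 6 and 1 of 13, with C7 at 4.05 and Masp1 at 1.55. Of 24 lipid genes, 8 were higher, 5 lower and 11 between, and in other fibroblasts 7 were higher and 4 lower. Fabp4, a fatty acid carrier, had 145 CPM in MC903 members, against 6.59 CPM in untreated members (4.46). Scd1, a fatty acid desaturase, had 509 against 73.2 CPM (2.80), and Lpl 836 against 245 CPM (1.77). The log2 ratios of Fabp4, Scd1 and Lpl in other fibroblasts were 3.39, 0.86 and 2.05. Of 15 glucocorticoid response genes 6 were higher and 0 lower, and the counts in other fibroblasts were the same. Of 20 chemokine and cytokine genes 7 were higher and 3 lower, with Cxcl14 at 2.35 and Cxcl12 at 1.40. In other fibroblasts 4 of 25 chemokine and cytokine genes were higher and 6 lower, with Cxcl14 at 2.71 and Cxcl12 at 0.79.

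Several matrix genes were lower. Of 37 collagen and matrix genes, 3 were at least 2-fold higher, 14 lower and 20 between (median log2 ratio -0.62, against 0.01 over all genes). Eln, elastin, had 177 CPM in MC903 members, against 1019 CPM in untreated members (-2.52), Col5a3 26.2 against 262 CPM (-3.32) and Col14a1 142 against 528 CPM (-1.89). In other fibroblasts 5 of 37 were higher and 7 lower (median -0.46), with Eln at -1.05, Col5a3 at -1.42 and Col14a1 at -1.86. Of 13 genes of the Pi16 profile, 0 were higher and 7 lower, among them Dpp4 at -1.91 and Anxa3 at -2.43. In other fibroblasts 0 of these 13 were higher and 4 lower, with Dpp4 at -1.995 and Anxa3 at -0.89. Interferon genes were more often lower than higher, 7 and 3 of 25, with Isg15 at -3.23 and the GTPase gene Iigp1 at 2.60. Other fibroblasts ran the same way, with 6 lower and 2 higher of 27, Isg15 at -1.47 and Iigp1 at 1.34. The lowest ratios included epidermal genes. The untreated member with most of each held 83.8% of the Lgals7 UMIs and 83.2% of the Fxyd3 UMIs, and without each gene's highest cell their log2 ratios were -3.13 and -1.60 in place of -5.55 and -3.56.

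At oxazolone day 16, 37 members were set against the 95 untreated ones. Of 8113 genes, 418 were at least 2-fold higher (5.15%) and 988 lower (12.2%), around a median log2 ratio of -0.21. With TMM scaling, which centres that median, 600 were higher and 645 lower. In other fibroblasts 7.61% of 14368 genes were at least 2-fold higher and 9.35% lower. Interferon response genes stood out in number: 19 of 23 were at least 2-fold higher and 0 lower (median 1.72), and in other fibroblasts of the same library 14 of 27 were higher and 0 lower. Iigp1 had 321 CPM in oxazolone day 16 members, against 13.9 CPM in untreated members (4.53, 3.87 to 5.28). Isg15, a ubiquitin-like protein, had 133 against 27.8 CPM (2.26). Ifit3 also stood at 2.26, with 61.2% of its UMIs in 1 member, and at 1.39 without each gene's highest cell. Of 12 antigen presentation genes, 7 were higher and 0 lower, the proteasome gene Psmb8 among them (1.78). That list shares B2m, H2-K1, H2-D1, Tap1, Psmb8 and Psmb9 with the interferon list. In other fibroblasts 2 of 15 antigen presentation genes were higher and 0 lower. Neutrophil markers moved with this library: their summed level was 890 CPM in members of oxazolone day 16, 43.4 with MC903 and 1.46 in untreated skin, and 773 CPM in other fibroblasts of oxazolone day 16. S100a9 had the highest ratio, 9.52 (7.04 to 14.83, from 687 UMIs against 1), with 69.3% of its UMIs in 1 member, and 6.25 without each gene's highest cell. The part of neutrophil RNA in these ratios was not tested.

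Several chemokine genes were also higher at oxazolone day 16. Of 16 chemokine and cytokine genes, 9 were higher and 1 lower, with the monocyte chemokine genes Ccl2 at 2.61 and Ccl7 at 2.36. Other fibroblasts had 9 higher and 2 lower of 25, with Ccl2 at 1.13 and Ccl7 at 0.99. Of 27 proteases and their inhibitors, 7 were higher, 3 lower and 17 between. Timp1, an inhibitor of matrix proteases, had 852 against 24.2 CPM (5.14) and Serpina3n 1833 against 74.0 CPM (4.63). Other fibroblasts had 4 higher and 6 lower of 28, with Timp1 at 3.72 and Serpina3n at 1.57. Cyp26b1, which breaks down retinoic acid, had 4.71 CPM in oxazolone day 16 members, against 247 CPM in untreated members (-5.72). It was lower in other fibroblasts too, with 98.3 against 567 CPM (-2.53). Of 12 papillary genes 0 were higher and 8 lower, of 18 Wnt genes 1 and 9, and of 27 immediate early and stress genes 0 and 9. In other fibroblasts of the same library more papillary and Wnt genes were higher than lower. Of 16 papillary genes 6 were higher and 1 lower there, of 30 Wnt genes 8 and 2, and of 29 immediate early and stress genes 1 and 4. The MC903 and oxazolone day 16 ratios share the untreated members as their denominator. Members with Cxcl13 alone numbered 20 of 37 at oxazolone day 16 and 16 of 95 in untreated skin. Among MC903 members, cells with Cxcl13 alone were at least 2-fold below those with Inmt alone in 8 of 13 papillary genes and above in 1. The part of this mix in the oxazolone day 16 ratios was not tested.

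**Figure D4:**
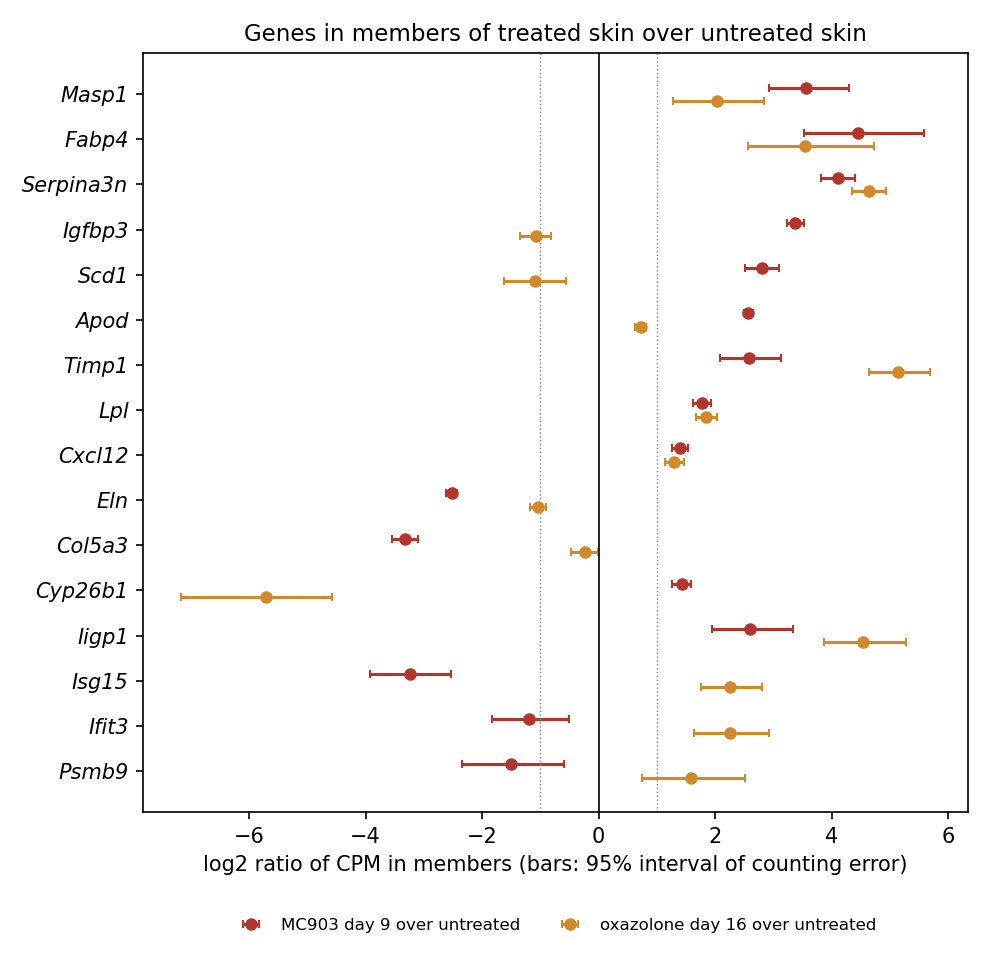
Log2 CPM ratio of 16 genes in members of MC903 skin (red) and of oxazolone day 16 skin (orange), each over untreated members; bars are 95% intervals of counting error and dotted lines mark 2-fold. Serpina3n lay at 4.10 and 4.63, whereas Igfbp3 lay at 3.37 and -1.08 and Isg15 at -3.23 and 2.26.

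Within the members, those with Cxcl13 alone and those with Inmt alone differed in many genes. The genes in this comparison were chosen after their values were seen. Of 11019 genes that reached 30 UMIs over both kinds of MC903 members, 4.21% were at least 2-fold higher in the 72 cells with Cxcl13 alone and 7.11% lower, relative to the 219 cells with Inmt alone. Cells with Cxcl13 alone had more of the collagen protease gene Ctsk (2016 against 464 CPM), of the lubricant gene Prg4 (1172 against 242 CPM) and of the matrix gene Thbs2 (527 against 81.7 CPM). Igfbp3 (5335 against 1543 CPM) and Lpl (1858 against 484 CPM) ran the same way. The cell with most Ctsk held 4.07% of the Ctsk UMIs of cells with Cxcl13 alone and 7.58% of those of cells with Inmt alone.

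Cells with Inmt alone had more transcripts of many Wnt genes. Dkk2, a secreted Wnt modulator, had 15.6 CPM in cells with Cxcl13 alone, against 366 CPM in those with Inmt alone. Axin2, a standard target of Wnt signals, had 6.73 against 52.3 CPM. Of 24 Wnt genes, 1 was at least 2-fold higher in cells with Cxcl13 alone and 14 lower (median log2 ratio -1.36, against 0.01 over all genes). The ciliary neurotrophic factor receptor gene Cntfr had 3.37 against 103 CPM, the glutathione transferase gene Gsta3 0.841 against 41.0 CPM and Ccbe1, which aids lymphatic growth, 32.0 against 444 CPM. C3 had 938 against 2348 CPM, Apod 3612 against 6491 CPM, Fmo2 161 against 482 CPM and Cyp24a1 31.1 against 101 CPM. Other fibroblasts of the MC903 library had 1108 CPM of C3, 4438 of Apod, 164 of Fmo2 and 77.2 of Cyp24a1. Cells with Cxcl13 alone were thus below the other fibroblasts in each of these genes, for Fmo2 only slightly. Dpep1 was close in both kinds of member, at 490 and 640 CPM. For Fabp4 and Apod the comparison of members with other fibroblasts turned round when only Inmt or only Cxcl13 was in the rule. With Inmt alone the log2 fold change of Fabp4 was -0.40 in place of 1.36. With Cxcl13 alone that of Apod was -0.44 in place of 0.48. Cells no longer chosen then counted as other fibroblasts. With Inmt alone, oxazolone day 16 had 16 members and did not enter, so that fit rested on the MC903 and untreated libraries.

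Most of the listed Hox genes were higher in members with Cxcl13 alone, and the list of position genes as a whole went both ways. Of 32 measured position genes, 9 were at least 2-fold higher in cells with Cxcl13 alone and 6 lower (median log2 ratio -0.06). Hox genes encode transcription factors that fibroblasts keep expressing according to their place along the body axis. The summed level of 18 listed Hox genes in MC903 skin was 127 CPM in members with Cxcl13 alone (interval 113 to 142), 29.6 CPM in members with Inmt alone (25.6 to 34.0) and 66.5 CPM in other fibroblasts (62.0 to 71.2). A Hox UMI was found in 65 of 72 cells with Cxcl13 alone (90.3%) and 83 of 219 with Inmt alone (37.9%), at median depths of 30900 and 27639 UMIs. Hoxa2 ran against the sum, at 2.52 CPM in cells with Cxcl13 alone and 8.47 CPM in those with Inmt alone. The log2 ratio of the sum was 2.10 (1.83 to 2.36), and between 2.01 and 2.18 when cells were weighted equally, when cells with other lineages' UMIs were left out or when at least 10 UMIs were asked of the gene held.

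In untreated skin the order was the same, with 84.1 CPM in 16 cells with Cxcl13 alone (55.9 to 122) and 28.2 CPM in 75 cells with Inmt alone (18.6 to 41.1), a log2 ratio of 1.57 (0.76 to 2.39; between 1.46 and 1.85 under the alternatives). At oxazolone day 10 it was 93.3 CPM in 9 cells and 11.5 CPM in 4. At oxazolone day 16 it was 123 CPM in 20 cells and 120 CPM in 13, a log2 ratio of 0.03 (-0.49 to 0.57), or -0.26 with cells weighted equally, so no difference was detectable there. Zic1, a transcription factor of dorsal tissue, had 72.4 against 10.6 CPM with MC903, and Pax9, of the pharyngeal and facial mesenchyme, 0.421 against 16.6 CPM. Neck and ear skin were pooled in every library, so the site of a cell cannot be told apart from its kind.

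**Figure D5:**
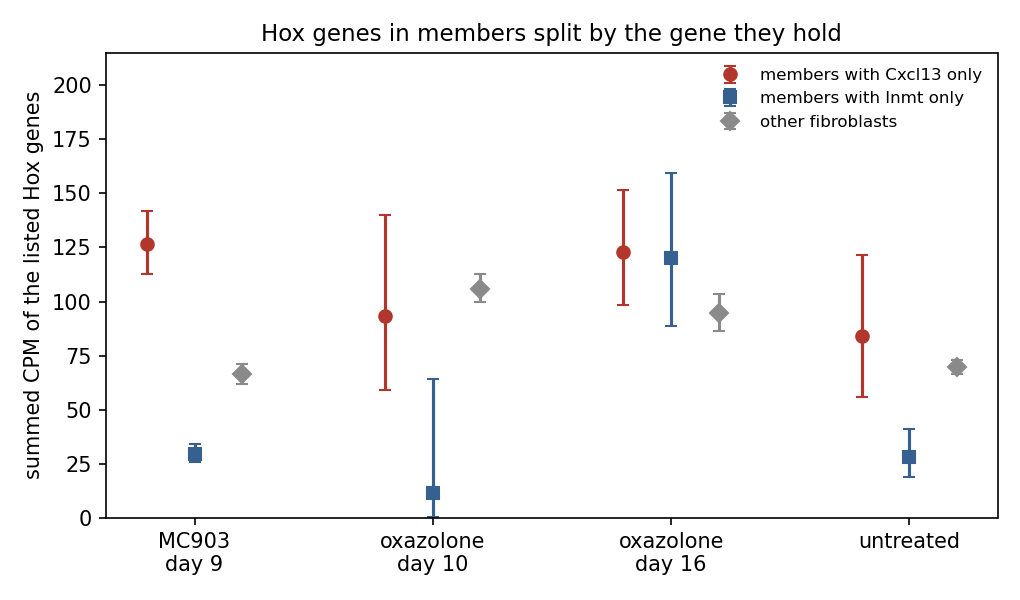
Summed CPM of 18 listed Hox genes in members with Cxcl13 alone (red), members with Inmt alone (blue) and other fibroblasts (grey) of each library; bars are exact Poisson 95% intervals. With MC903 the levels were 127, 29.6 and 66.5 CPM, and at oxazolone day 16 members with Cxcl13 alone had 123 CPM and those with Inmt alone 120 CPM.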

How the data were processed

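Droplet-based 3′ single-cell RNA libraries were deposited as raw UMI counts per gene and cell barcode. Per the file headers the authors made the counts with Cell Ranger 8.0.0 (MC903, oxazolone day 16) or 7.2.0 (oxazolone day 10, untreated); the submitters' processing notes name version 8.0 and the build mm10. The annotation, and whether intronic reads counted, is not given in the sources used here. No doublet caller was run; cells with at least 3 UMIs of other lineages' genes were left out as an alternative. UMIs were summed per library over members and over other fibroblasts, divided by the summed total to give CPM, and compared with edgeR 4.0.16 (limma 3.58.1, R 4.3.3) with TMM scaling, a library term and an adjusted p under 0.05. The script was tested on simulated data. DESeq2 1.42.0 was an alternative. Between libraries, which hold 1 pool of 3 mice per group, CPM ratios were formed for genes with at least 30 UMIs, with conditional binomial 95% intervals and no test; a count of 0 was set to 3 UMIs per group and the ratio given as a bound. Shares have exact Clopper-Pearson intervals. UMIs of 1 cell or mouse are not independent, so intervals cover counting error only. Keratinocytes had at least 20 UMIs of Krt5 and Krt14, and leukocytes at least 2 of Ptprc. Genes named are the 12 highest and 8 lowest called against other fibroblasts, the 8 highest and 8 lowest MC903 ratios, the 4 highest and 4 lowest oxazolone ratios, the marker genes, and up to 4 (fit) or 3 (ratios) genes of each list. Genes named outside this rule were chosen after their values were seen. The members and lists were chosen with earlier results of these data known. Symbols on more than 1 gene row were left out. C4b, Serpina3n and Iigp1 have close paralogs, among which counts may be split. Python 3.11.15 with numpy 2.4.6, pandas 2.3.3, scipy 1.17.1 and matplotlib 3.10.9 was used.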

Additional observations from a re-analysis of the deposited data

Results flagged for a closer look

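Among 8104 genes measured in members of both comparisons, 77 were at least 2-fold higher over untreated members in one treatment and at least 2-fold lower in the other, 32 of them higher with MC903 and 45 lower. These differences between treatments were not tested, and both ratios share the untreated members. The mix of members with Cxcl13 alone and with Inmt alone also differed between the libraries. 9 of the genes named by rule were among them. In 4 of these 9 genes the ratio was higher with MC903 and lower at oxazolone day 16: the log2 ratio was 3.37 and -1.08 for Igfbp3, 2.80 and -1.08 for Scd1, 2.51 and -2.36 for Ddit4, a stress-induced inhibitor of mTOR signalling, and 1.42 and -5.72 for Cyp26b1. The other 5 ran lower with MC903 and higher at oxazolone day 16: the log2 ratio was -3.23 and 2.26 for Isg15, -2.52 and 1.96 for Ifit1, -1.20 and 2.26 for Ifit3, -1.51 and 1.59 for Psmb9, a proteasome subunit, and -2.31 and 1.71 for Aldh1a3, which makes retinoic acid. They do not stand for their lists: of 25 interferon response genes 15 were between the 2-fold limits with MC903, and Iigp1 was higher in both treatments (2.60 and 4.53). Few cells carried some of these: 1 MC903 member held 46.7% of the Ifit1 UMIs, 52.5% of the Ifit3 UMIs or 50.0% of the Aldh1a3 UMIs, and 1 oxazolone day 16 member held 41.0% of the Ifit1 UMIs or 61.2% of the Ifit3 UMIs.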

How the results depend on the processing

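No paired analysis was possible because each group has 1 library and no replicate numbers join the groups; members and other fibroblasts were paired within libraries by the library term. Shares of members in the MC903, oxazolone day 10, oxazolone day 16 and untreated libraries were 33.8%, 1.47%, 7.48% and 0.972% with at least 10 UMIs, 30.01%, 1.304%, 4.95% and 2.02% after thinning, and 34.7%, 1.26%, 7.48% and 4.11% with Inmt alone. With Cxcl13 alone they were 18.1%, 2.52%, 11.2% and 1.08%. MC903 had 43.7% with 5 collagen UMIs, and untreated skin 6.31% without cells holding other lineages' UMIs. Against other fibroblasts, 279 genes were higher and 785 lower after thinning, where MC903 and untreated libraries entered, 517 and 1202 with all genes of at least 1 UMI, and 273 and 488 by DESeq2. Without the library term edgeR called 0 and 0 (1031 genes at an unadjusted p under 0.05). Leaving out each library gave 4 to 271 higher and 15 to 591 lower. Of 860 values of 72 named genes under 12 alternatives, 2 changed direction. Fabp4 went to -0.40 with Inmt alone, where MC903 and untreated libraries entered, and Apod to -0.44 with Cxcl13 alone. Without the MC903 library, 54 genes lost their call. Over all alternatives, 162 of the 860 values lost a call and 22 gained a call. With at least 100 UMIs, 704 genes were higher and 587 lower with MC903, and 189 and 325 at oxazolone day 16, where TMM scaling gave 600 and 645. There were 387 MC903 values and 288 oxazolone day 16 values of named genes. Of these, 84 and 45 fell outside the interval of the main ratio. None changed direction among genes with a main ratio of at least 2-fold, and smaller ratios were not checked for direction. Loosening the collagen limit, ratios of Inmt members, the Hox alternatives and leaving out each gene's highest cell were chosen after seeing the data. Not run, with under 20 members in a library: the fit and ratios with at least 10 UMIs, oxazolone day 16 ratios after thinning or with Inmt alone, and all oxazolone day 10 ratios.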
